A study of Mus musculus with 6 samples.

Results

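LIM homeodomain proteins are transcription factors that carry a pair of zinc-binding LIM domains and a DNA-binding homeodomain. The genes described here are 6 LIM homeodomain genes (Lhx1, Lhx2, Lhx6, Lhx8, Lhx9 and Isl1), 3 genes of LIM-only proteins (Lmo1, Lmo3 and Lmo4) and Ldb2, which encodes a cofactor that binds LIM domains. They were selected by gene symbol, and each matched 1 row, so that there were 10 genes of the 55416 in the deposited table of counts. The tissue was the ganglionic eminence of mouse embryos at E13.5, in 3 libraries labelled as Dlx1/Dlx2 double knockout and 3 labelled as wild type from littermates. The labels do not name the knockout allele, the strain, the sex or any treatment. They do not say whether a library held 1 embryo or several. The p-values of the fits set the group difference against the spread between libraries of a group. Part of that spread may thus be technical. The comparison asks how loss of Dlx1 and Dlx2, a pair of homeobox genes of the subpallium, changed expression.

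In the LIM code, LIM homeodomain proteins act in complexes that are bridged by dimers of Ldb1 or Ldb2. LIM-only proteins have no homeodomain and compete with LIM homeodomain proteins for the Ldb cofactor, and Ssbp proteins stabilise the complex. In the ventral forebrain, Lhx6 and Lhx8 act downstream of Nkx2-1 in the medial ganglionic eminence, Lhx6 in cortical interneurons and Lhx8 with Isl1 in forebrain cholinergic neurons. Isl1 is also a factor of the striatonigral neurons of the lateral eminence. Lhx2 is a factor of forebrain progenitors, and Lhx1, Lhx5 and Lhx9 mark neurons of the diencephalon and of the borders of the telencephalon.

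Promoter sequences are given for Lhx6 and Lhx8, which fell, for Isl1, which rose, and for Lmo1, the single member whose windows hold the palindrome TAATTA. They come from the RefSeq table of GRCm38.p6, an earlier build than the GRCm39 named in the submitters' processing notes, and show up to 250 bases before a transcription start, without bases that GENCODE M21 places in an exon. Each is written 5′ to 3′ on the gene's strand. Capitals mark TAAT or its reverse complement ATTA, the core that many homeodomains bind, searched on both strands. The windows are chr2:36104061-36104310 (minus strand) for 1 of 3 starts of Lhx6, chr3:154330660-154330810 (minus strand) for Lhx8, chr13:116309690-116309938 (minus strand) for Isl1 and chr7:109175208-109175457 (minus strand) for 1 of 2 starts of Lmo1.
Lhx6: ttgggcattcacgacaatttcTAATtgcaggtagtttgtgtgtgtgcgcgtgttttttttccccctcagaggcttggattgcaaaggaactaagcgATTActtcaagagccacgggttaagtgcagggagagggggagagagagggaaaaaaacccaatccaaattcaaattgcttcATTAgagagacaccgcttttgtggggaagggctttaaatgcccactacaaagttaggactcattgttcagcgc
Lhx8: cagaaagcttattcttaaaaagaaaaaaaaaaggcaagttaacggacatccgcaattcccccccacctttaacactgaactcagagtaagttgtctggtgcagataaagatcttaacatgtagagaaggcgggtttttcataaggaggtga
Isl1: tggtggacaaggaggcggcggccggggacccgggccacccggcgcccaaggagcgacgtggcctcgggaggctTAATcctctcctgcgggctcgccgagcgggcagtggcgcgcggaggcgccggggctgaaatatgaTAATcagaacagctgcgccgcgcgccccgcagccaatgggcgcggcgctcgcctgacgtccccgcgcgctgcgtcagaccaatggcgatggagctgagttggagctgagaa
Lmo1: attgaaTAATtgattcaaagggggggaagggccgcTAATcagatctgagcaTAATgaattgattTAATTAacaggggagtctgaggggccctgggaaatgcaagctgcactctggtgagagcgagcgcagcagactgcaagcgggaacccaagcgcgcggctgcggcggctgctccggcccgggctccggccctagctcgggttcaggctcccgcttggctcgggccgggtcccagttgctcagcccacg

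The table held promoters of 9 of the 10 genes, Ldb2 being the other, with 15 starts in all. TAAT or ATTA was present in 7 of these 15 windows of 250 bases (46.7%), and in 54.9% of all 32851 windows of that length. The other starts of Lhx6, the single start of Lhx8, both starts of Lhx2 and all 3 starts of Lmo4 had no match. TAATTA, which contains both forms of the core, occurred in 4.84% of all windows and in the 2 overlapping windows of Lmo1. These matches describe the letters in the windows only.

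Total counts ranged from 56618090 to 70114173 per library. Dlx1 and Dlx2 were at 18.6% and 2.94% of their wild-type means in the double knockout, and no library went against its label. The edgeR quasi-likelihood test called 634 of 23628 tested genes (2.68%) at an adjusted p under 0.05, of which 317 were higher (1.34%) and 317 lower (1.34%) in the double knockout. Scaling by total count gave 390 higher and 256 lower, or 60.4% higher in place of 50%. Of 8 markers of the ganglionic eminences, 4 were called, 2 higher and 2 lower. Among them the progenitor gene Gsx2 had 21.9, 22.6 and 25.97 CPM (counts scaled to library size) in wild-type replicates 1 to 3, and 34.3, 32.9 and 42.6 CPM in double knockout replicates 1 to 3 (log2 fold change 0.64, edgeR adjusted p of 0.0204, but 0.09403 and 0.0969 without wild-type replicate 1 or 2 and 0.0688 with Y-linked expression as a covariate). The GABA synthesis gene Gad2 had 319, 326 and 323 CPM in wild-type replicates 1 to 3, and 123, 122 and 128 CPM in double knockout replicates 1 to 3 (log2 fold change -1.38, edgeR adjusted p of 4.39e-06). The part of these shifts in the values of Lhx6 and Lhx8 was not tested. Summed blood markers (7 genes) lay between 91.6 and 109 CPM in wild-type libraries and between 83.9 and 118 in double knockouts, and summed vessel, microglia and meningeal markers (9 genes) between 104 and 126 and between 109 and 125. Summed cortical markers (8 genes) were lower in the double knockout, with 717 to 749 against 924 to 945 CPM, and edgeR called 1 of the 8, Neurod2 (7 at an unadjusted p under 0.05), while DESeq2 called 5, all lower. Y-linked genes were expressed in wild-type replicate 1 and in double knockout replicates 2 and 3, and were near 0 in the other 3 libraries. Each group thus held libraries with and without Y-linked expression, so the libraries of a group were not all repeats of the same sample. The groups were not balanced for Y-linked expression.

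Double knockout replicate 3 was the highest or the lowest library of its group for all 10 genes, and it stood apart most in Lhx6, Lhx8, Lhx9 and Lmo3. In a group of 3, 2 libraries are always the extremes of a gene, and the share over all tested genes was not computed. Summed Cajal-Retzius cell markers (6 genes, led by Reln) were at 275 CPM in it, below 395 and 454 CPM in double knockout replicates 1 and 2 and below the wild-type range of 311 to 359 CPM. Sim1, a gene of the hypothalamus, was at 20.7, 16.9 and 2.96 CPM in double knockout replicates 1 to 3 and 11.1, 3.95 and 11.8 CPM in the 3 wild-type libraries. The part of these differences in the results was not tested. In bulk tissue, fewer cells of a type and less RNA per cell cannot be told apart.

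All 10 genes passed the filter on low counts, and 5 were called (against 2.68% of all tested genes), with Lhx6 and Lhx8 lower and Isl1, Lhx2 and Lhx1 higher. The groups did not overlap for 7 of the 10, 3 higher and 4 lower, against 19.5% of all tested genes (9.3% higher and 10.2% lower). The members were chosen with earlier results of these data known, so these shares are not independent support. The median log2 fold change of the 10 genes was -0.08, and that of all tested genes was -0.0016. Without wild-type replicate 1 or 2, or without double knockout replicate 1 or 2, 3 members were called. The share of all tested genes called in these fits was 1.27, 1.35, 1.57 and 1.66%. Without double knockout replicate 3, 7 members were called, against 3.09% of all tested genes.

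**Figure D1:**
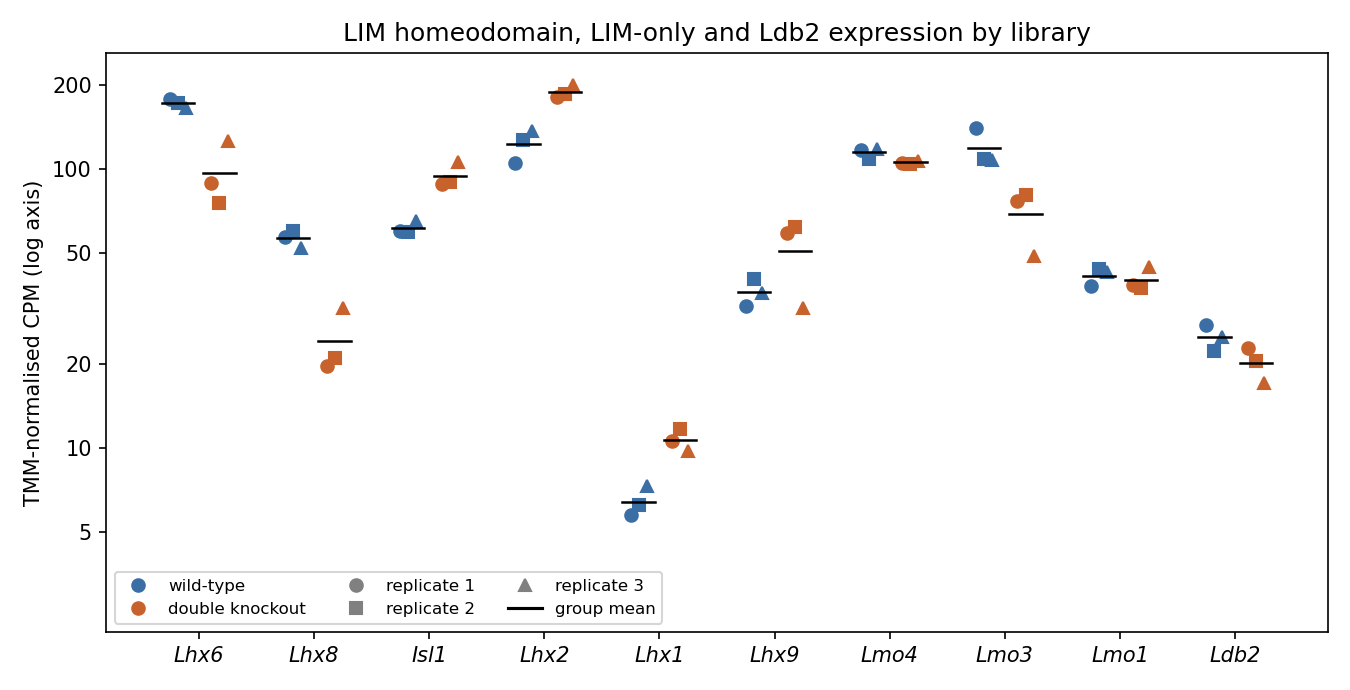
TMM-normalised CPM of each of the 10 genes (log axis) in the 3 wild-type and 3 double knockout libraries, with symbols for replicate numbers and bars for group means. The groups separate downward for Lhx6, Lhx8, Lmo3 and Lmo4 and upward for Isl1, Lhx2 and Lhx1.

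Among the factors of the medial eminence, Lhx8 had the largest fold change of the 10 genes. Wild-type replicates 1 to 3 had 57.02, 59.8 and 52.3 CPM of Lhx8 (ENSMUSG00000096225), and double knockout replicates 1 to 3 had 19.6, 21.004 and 31.7 CPM. Every double knockout library was below every wild-type library, with replicate 3 the highest of them. The mean fell from 56.4 ± 3.81 CPM (SD, n = 3) to 24.1 ± 6.62 CPM (SD, n = 3), or to 42.8% ± 11.7 of the wild-type mean. The edgeR estimate was a log2 fold change of -1.22 ± 0.165 (SE), adjusted p of 0.00622. Lhx8 was called whichever library was left out, with log2 fold changes from -1.47 to -1.09.

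Lhx6 (ENSMUSG00000026890), which directs the migration and subtype identity of interneurons, had the highest mean CPM of the 10 genes in the wild type. Its level was 178, 173 and 165 CPM in wild-type replicates 1 to 3, and in double knockout replicates 1 to 3 it was 88.9, 75.5 and 125 CPM. No double knockout library reached the wild-type range, and replicate 3 had 72.9% of the wild-type mean against 51.7% and 43.9% in replicates 1 and 2. Lhx6 fell by 0.83 ± 0.157 (SE) on the log2 scale (edgeR adjusted p of 0.0298). The call was lost without wild-type replicate 1, 2 or 3 (edgeR adjusted p of 0.113, 0.104 and 0.0788), without double knockout replicate 1 or 2 (0.118 and 0.0534) and with the Y-linked covariate (0.069). Leaving out double knockout replicate 3 gave -1.06 on the log2 scale, edgeR adjusted p of 1.83e-04. A same-strand gene, Gm27953, overlaps 104 bases of Lhx6 exons in GENCODE M21, so part of its count is uncertain.

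Nkx2-1, the regulator upstream of both genes, rose in the same libraries. Wild-type replicates 1 to 3 had 118, 139 and 127 CPM, and double knockout replicates 1 to 3 had 179, 169 and 231 CPM. Its rise on the log2 scale was 0.59 ± 0.114 (SE), edgeR adjusted p of 0.0322. The call was lost without wild-type replicate 1, 2 or 3 (edgeR adjusted p of 0.147, 0.071 and 0.114), without double knockout replicate 1 (0.06397) and with the Y-linked covariate (0.108).

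Lhx6 and Lhx8 were also compared with Nkx2-1 inside each library, as ratios of CPM. Lhx6 to Nkx2-1 was 1.51, 1.24 and 1.301 in wild-type replicates 1 to 3, then 0.497, 0.447 and 0.543 in double knockout replicates 1 to 3. For Lhx8 to Nkx2-1 the wild-type ratios were 0.481, 0.431 and 0.412, and the double knockout ratios were 0.1098, 0.124 and 0.137. On both ratios double knockout replicate 3 was the closest to the wild type, but it was outside the wild-type range. The log2 ratio to Nkx2-1 differed by -1.45 for Lhx6 and by -1.84 for Lhx8 (double knockout minus wild type), with an exact two-sided permutation p of 0.1 for each, the smallest that 3 libraries against 3 can give. Adjusted over the 7 ratios compared, each was 0.117. As Lhx6 and Lhx8 fell and Nkx2-1 rose without overlap, both ratios had to separate, and their p-values add no support.

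The fold of Lhx6 over Lhx8, as CPM, was greater in the double knockout. It was 3.13, 2.89 and 3.16 in the wild-type libraries, and in the double knockout it was 4.52, 3.595 and 3.95. These ranges were separate, and the log2 ratio was higher by 0.39 in the double knockout (exact permutation p of 0.1, adjusted p of 0.117).

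Of 12 other genes of the Nkx2-1 and Lhx6 interneuron lineage, 8 were called, 6 lower and 2 higher, against 2.68% of all tested genes. The median log2 fold change of the 12 was -0.57. This list was also chosen with earlier results of these data known, so its share is not independent support. Among the genes that fell, the bZIP factor gene Maf had 44.05, 33.9 and 35.7 CPM in wild-type replicates 1 to 3, and 11.7, 10.04 and 10.5 CPM in double knockout replicates 1 to 3, a log2 fold change of -1.82 ± 0.113 (SE). Lower values were also called for the chemokine receptor gene Cxcr4 (log2 fold change -0.69), the neuropeptide gene Sst (-0.58) and Zeb2 (-0.55). The genes that rose were Nkx2-1 and the neuropeptide gene Npy, the latter by 0.79 on the log2 scale. Sox6, a factor that acts after Lhx6, lay between 214 and 229.8 CPM in wild-type libraries and between 208 and 232 CPM in double knockouts (edgeR adjusted p of 0.867). Sst lost its call without wild-type replicate 1, 2 or 3 or double knockout replicate 1 (edgeR adjusted p of 0.0978, 0.109, 0.0723 and 0.09596) and with the Y-linked covariate (0.0803), and Cxcr4 without double knockout replicate 1 (0.0537). Exons of Maf and Zeb2 overlap genes on the opposite strand in GENCODE M21, so their counts are uncertain.

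**Figure D2:**
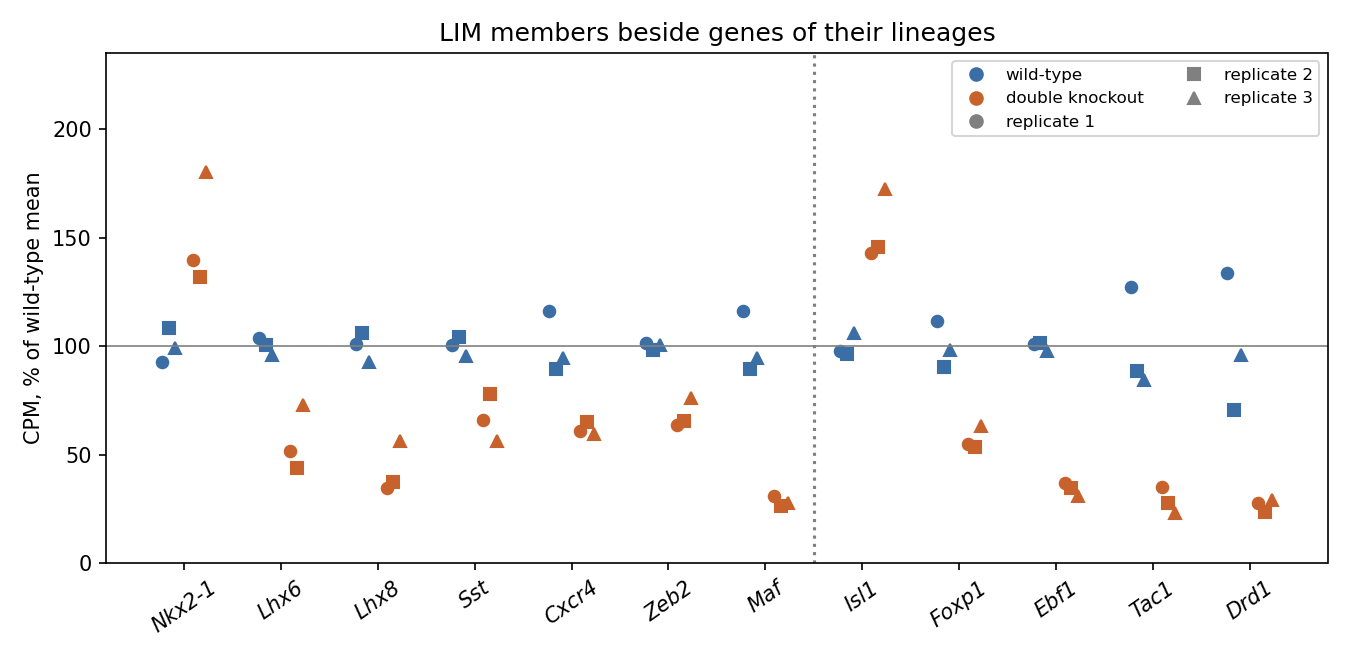
CPM in each library as a percentage of the gene's wild-type mean, for Nkx2-1, Lhx6, Lhx8 and genes of the medial eminence lineage (left of the dotted line) and for Isl1 and genes of the striatonigral lineage (right). Lhx6 is at 43.9 to 72.9% and Lhx8 at 34.9 to 56.3% in the double knockout, while Nkx2-1 and Isl1 are above the line at the wild-type mean in all 3 double knockout libraries.

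Isl1 rose, while most genes listed with it for striatonigral neurons fell. Isl1 (ENSMUSG00000042258) had 60.1, 59.3 and 65.3 CPM in wild-type replicates 1 to 3, and 87.99, 89.6 and 106 CPM in double knockout replicates 1 to 3. Each double knockout library exceeded each wild-type library and had at least 143% of the wild-type mean. Its rise on the log2 scale was 0.62 ± 0.0789 (SE), edgeR adjusted p of 0.00442. Isl1 was called in all 14 alternative fits, those without 1 library and with the Y-linked covariate included.

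Of 11 other genes of the striatonigral list, 9 were called and all 9 were lower (1.34% of all tested genes were), with a median log2 fold change of -0.80. Earlier results of these data were known when this list was chosen, so its share is not independent support. Ebf1, a transcription factor gene of these neurons, had 132, 133 and 127 CPM in wild-type replicates 1 to 3 and 48.2, 45.3 and 40.3 CPM in double knockout replicates 1 to 3. The dopamine receptor gene Drd1, the substance P precursor gene Tac1 and the retinoic acid receptor gene Rarb fell by 1.89, 1.81 and 1.73 on the log2 scale. Zfp503, Foxp1, Bcl11b, Meis2 and Foxp2, which encode transcriptional regulators of striatal neurons, had log2 fold changes of -1.66, -0.80, -0.54, -0.45 and -0.25. Wild-type replicates 1 to 3 had CPM ratios of Isl1 to Ebf1 of 0.456, 0.447 and 0.512. Double knockout replicates 1 to 3 had ratios of 1.82, 1.98 and 2.64. The difference was 2.17 in the log2 ratio (exact permutation p of 0.1, adjusted p of 0.117). As Isl1 rose and Ebf1 fell without overlap, this separation was fixed in advance, and its p adds no support. Foxp2 lost its call without each of the 6 libraries (edgeR adjusted p from 0.0635 to 0.153) with the Y-linked covariate (0.146), with total count scaling (0.0872) and in limma-voom (0.0546), and Meis2 without double knockout replicate 2 (0.0502). Rarb overlaps genes on the opposite strand and Foxp1 overlaps genes on its own strand, so their counts are uncertain.

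Isl1 and Lhx8, which form a complex in cholinergic neurons, went in opposite directions. Wild-type replicates 1 to 3 had CPM ratios of Isl1 to Lhx8 of 1.05, 0.992 and 1.25, whereas double knockout replicates 1 to 3 had ratios of 4.48, 4.27 and 3.35. The groups were far apart, with a difference of 1.87 in the log2 ratio (exact permutation p of 0.1, adjusted p of 0.117). As Isl1 rose and Lhx8 fell without overlap, this ratio had to separate, and its p adds no support. Of 8 other genes of forebrain cholinergic neurons, none was called in edgeR with the filter and all libraries, or in limma-voom, and 4 had an unadjusted p under 0.05 in each. DESeq2 called 3 of them, edgeR without a filter on low counts 2, and edgeR without double knockout replicate 3 called 1. Gbx1, a homeobox gene of this list, lay between 14.5 and 17.7 CPM in wild-type libraries and between 9.43 and 12.8 CPM in double knockouts. Its edgeR adjusted p was 0.0552, with 0.00725 without double knockout replicate 3 and up to 0.196 without another library. Gbx2 lay between 5.67 and 7.08 CPM and between 8.45 and 15.7 CPM (edgeR adjusted p of 0.09903), but a gene on the opposite strand overlaps its exons. It is also among the thalamic and prethalamic markers counted below. Slc10a4, a transporter gene of cholinergic neurons, lay between 11.8 and 13.8 CPM and between 10.4 and 11.4 CPM (edgeR adjusted p of 0.263).

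Lhx2 (ENSMUSG00000000247) rose in all 3 double knockout libraries. It had 105, 127 and 137 CPM in wild-type replicates 1 to 3, and 181, 186 and 200.01 CPM in double knockout replicates 1 to 3. The lowest wild-type library was replicate 1, and no double knockout library overlapped the wild type. The log2 difference was 0.62 ± 0.0913 (SE), edgeR adjusted p of 0.00931. Leaving out any 1 library kept the call, at log2 fold changes from 0.52 to 0.70.

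Lhx1 (ENSMUSG00000018698) had the lowest mean CPM of the 10 genes and rose. Wild-type replicates 1 to 3 had 5.77, 6.27 and 7.295 CPM, and double knockout replicates 1 to 3 had 10.6, 11.7 and 9.75 CPM, which rested on 338 to 468 and 676 to 689 reads. The groups were separate, with double knockout replicate 3 the nearest to the wild type. The log2 difference was 0.73 ± 0.1198 (SE), edgeR adjusted p of 0.0157. The call was lost without wild-type replicate 1 or 2 (edgeR adjusted p of 0.0774 and 0.0737) and without double knockout replicate 1 or 2 (0.0582 and 0.0656).

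Lhx9 and Lhx5 shared a pattern that split the double knockout. Lhx9 (ENSMUSG00000019230) had 32.2, 40.3 and 35.9 CPM in wild-type replicates 1 to 3, and 58.7, 62.1 and 31.8 CPM in double knockout replicates 1 to 3. Double knockout replicates 1 and 2 were above all wild-type libraries and replicate 3 was below them. Lhx9 did not pass the test (log2 fold change 0.49 ± 0.2197 (SE), edgeR adjusted p of 0.388). Without double knockout replicate 3 its log2 fold change was 0.75 and its edgeR adjusted p 0.00302. With any other library left out, its edgeR adjusted p was 0.468 to 0.713. Lhx5, a close paralogue of Lhx1, had 8.65, 8.63 and 9.46 CPM in wild-type replicates 1 to 3, and 14.2, 16.2 and 8.53 CPM in double knockout replicates 1 to 3. The edgeR adjusted p of Lhx5 was 0.291 with all libraries and 0.00458 without double knockout replicate 3. With any other library left out it was 0.424 to 0.585. Exons of Lhx5 overlap an opposite-strand gene, so its counts are uncertain.

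Double knockout replicate 3 was also the lowest of its group in Ebf3, Reln and Sim1, but it was the highest of its group in the summed cortical, blood and vessel, microglia and meningeal markers. Of the 6 genes listed for Cajal-Retzius cells (median log2 fold change 0.21), edgeR with all libraries called Ebf3 alone. Ebf3 had 20.4, 20.4 and 23.8 CPM in wild-type replicates 1 to 3 and 47.9, 50.6 and 29.02 CPM in double knockout replicates 1 to 3. It rose by 0.98 on the log2 scale (edgeR adjusted p of 0.0318). Its call was lost without wild-type replicate 1, 2 or 3 or double knockout replicate 1 or 2 (edgeR adjusted p from 0.0792 to 0.133) with the Y-linked covariate (0.0603), and in limma-voom (adjusted p of 0.0581), and an opposite-strand gene overlaps it. Reln, a gene of the same cells, had 271, 247 and 292 CPM and 296, 348 and 212 CPM in the same order of libraries. The hypothalamic factor gene Otp had 11.1, 5.27 and 11.96 CPM in wild-type replicates 1 to 3, and 121, 113 and 121 CPM in double knockout replicates 1 to 3, without that split. Summed hypothalamic markers (8 genes, 2 of them at 3 reads or fewer in every library) lay between 10.5 and 25.3 CPM in wild-type libraries and between 126 and 144 in double knockouts. Otp carried most of this sum: without it the other 7 genes summed to 13.1, 5.196 and 13.3 CPM in wild-type replicates 1 to 3, and 23.2, 18.8 and 4.84 CPM in double knockout replicates 1 to 3, with overlap, and edgeR called Otp alone of the 5 tested. Summed thalamic and prethalamic markers (8 genes, 7 tested) lay between 67.1 and 83.3 and between 89.2 and 97.3 CPM. None of these 7 was called in edgeR with TMM and all libraries, or in limma-voom, with 3 at an unadjusted p under 0.05 in each. DESeq2 called 3 of the list, and edgeR called 3 without a filter on low counts, 2 without wild-type replicate 3, 1 without double knockout replicate 3 and 1 with total count scaling, all higher. The part of these cells in the values of Lhx1, Lhx5 and Lhx9 was not tested.

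**Figure D3:**
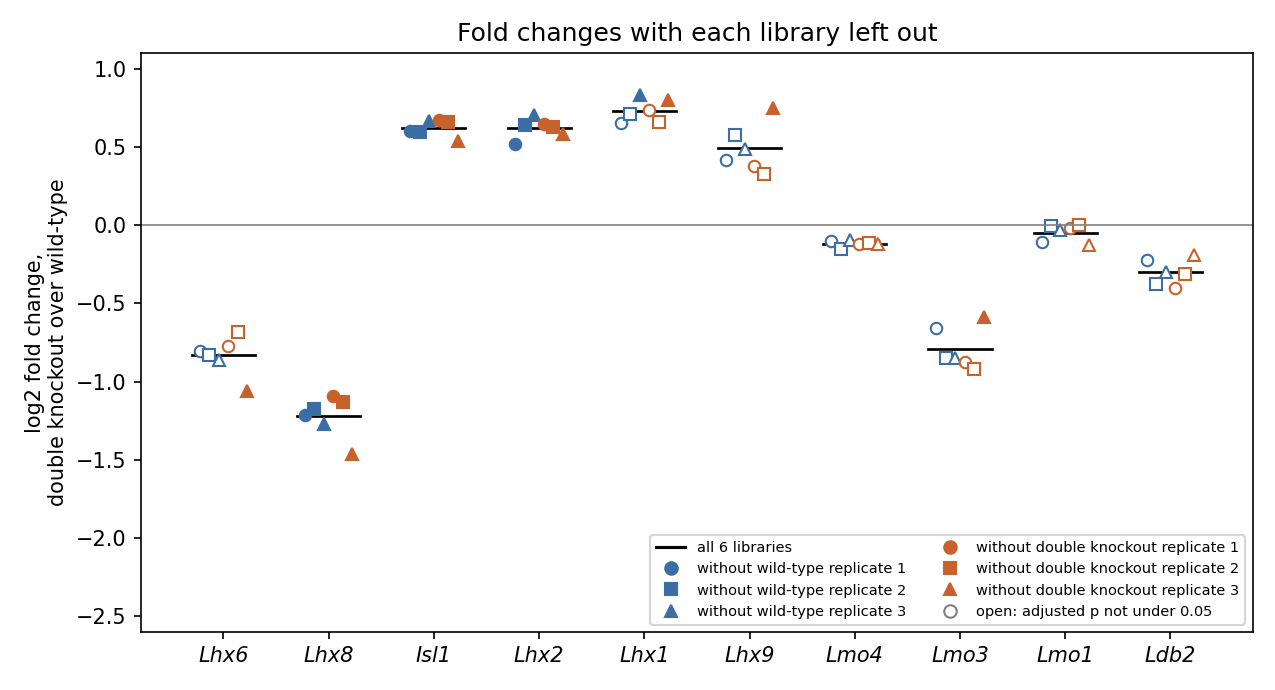
Log2 fold change of each of the 10 genes (double knockout over wild type) with all 6 libraries (bars) and with each library left out (points, open where the edgeR adjusted p was not under 0.05). All points of Lhx8, Isl1 and Lhx2 are filled, and the point without double knockout replicate 3 lies farthest from the bar for Lhx6, Lhx8, Isl1, Lhx9, Lmo1, Lmo3 and Ldb2.

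Of the LIM-only genes, none passed the test in edgeR with the filter, all libraries and no replicate block, or in limma-voom, and DESeq2 called Lmo3. Lmo3 (ENSMUSG00000030226) had 140.1, 109 and 108 CPM in wild-type replicates 1 to 3, and 76.9, 80.98 and 48.7 CPM in double knockout replicates 1 to 3. Its double knockout libraries were all below the wild type, with replicate 3 the lowest. The log2 fold change of Lmo3 was -0.79 ± 0.183 (SE), edgeR adjusted p of 0.0672. Lmo3 was called without double knockout replicate 3 (edgeR adjusted p of 0.0244), without a filter on low counts (0.00428) and with a replicate block (0.0186). With any other library left out, its edgeR adjusted p was 0.076 to 0.23. The value was 0.147 with the Y-linked covariate and 0.0993 with total count scaling. In DESeq2 the adjusted p was 1.43e-04.

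Lmo4 (ENSMUSG00000028266) had 117, 109 and 118 CPM in wild-type replicates 1 to 3, and 105, 104 and 107 CPM in double knockout replicates 1 to 3 (edgeR adjusted p of 0.318). The groups did not overlap but lay close, at a log2 fold change of -0.12 ± 0.0474 (SE). Lmo1 (ENSMUSG00000036111) had 37.99, 43.98 and 42.6 CPM in wild-type replicates 1 to 3, and 38.3, 37.4 and 44.7 CPM in double knockout replicates 1 to 3, with overlapping groups and an edgeR adjusted p of 0.886. The log2 ratio of Lmo3 to Lmo4 had means of 0.04 in the wild type and -0.65 in the double knockout, which did not overlap (exact permutation p of 0.1, adjusted p of 0.117). The unadjusted p was under 0.05 in edgeR for Lmo3 (0.00219) and Lmo4 (0.0346) but not for Lmo1 (0.586).

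Neither cofactor gene was called. Ldb2 (ENSMUSG00000039706) had 27.6, 22.2 and 25.003 CPM in wild-type replicates 1 to 3, and 22.9, 20.5 and 17.2 CPM in double knockout replicates 1 to 3. These groups overlapped, and the log2 difference was -0.30 ± 0.1198 (SE), edgeR adjusted p of 0.314. Ldb1, the other bridging cofactor, had 296, 299 and 306 CPM in wild-type replicates 1 to 3, and 265, 278 and 311 CPM in double knockout replicates 1 to 3 (edgeR adjusted p of 0.719). Lmo4 to Ldb1, the LIM-only gene against the cofactor, had CPM ratios between 0.364 and 0.396 in wild-type libraries and between 0.343 and 0.397 in double knockouts, a log2 difference of -0.04 (exact permutation p of 0.7, adjusted p of 0.7). Exons of Ldb1 overlap the opposite-strand gene Pprc1, so its counts are uncertain.

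Of 12 further genes of the family and its complexes, 10 passed the filter and 1 was called (2.68% of all tested genes were), with a median log2 fold change of 0.07. Ssbp4, a gene of the Ssbp group, rose from 38.1, 39.7 and 39.1 CPM in wild-type replicates 1 to 3 to 48.3, 51.1 and 46.6 CPM in double knockout replicates 1 to 3, by 0.32 ± 0.0568 (SE) on the log2 scale (edgeR adjusted p of 0.0224). Its call was lost without wild-type replicate 1, 2 or 3 (edgeR adjusted p of 0.107, 0.0817 and 0.09397), without double knockout replicate 1 or 2 (0.0778 and 0.0921) and with the Y-linked covariate (0.0708). Ssbp3 lay between 305 and 328 CPM in wild-type libraries and between 342 and 361 CPM in double knockouts, and Ssbp2, which an opposite-strand gene overlaps, between 98.5 and 103 and between 91.5 and 97.2 CPM. Rlim, the gene of a ubiquitin ligase that targets Ldb cofactors, lay between 189 and 192 and between 182 and 196 CPM. Lmo2 lay between 10.2 and 10.96 and between 9.18 and 10.2 CPM.

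The remaining LIM homeodomain genes were barely detected. Lmx1b read counts were 3 to 7 in wild-type and 13 to 24 in double knockout libraries, and these ranges were separate (log2 fold change 1.83 ± 0.466 (SE), edgeR adjusted p of 0.0942). Lhx4 had 6 to 21 and 18 to 36 reads, and Lmx1a had 8 to 61 and 13 to 84 reads. Lhx3 and Isl2 had at most 12 reads in any library and did not pass the filter.

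**Figure D4:**
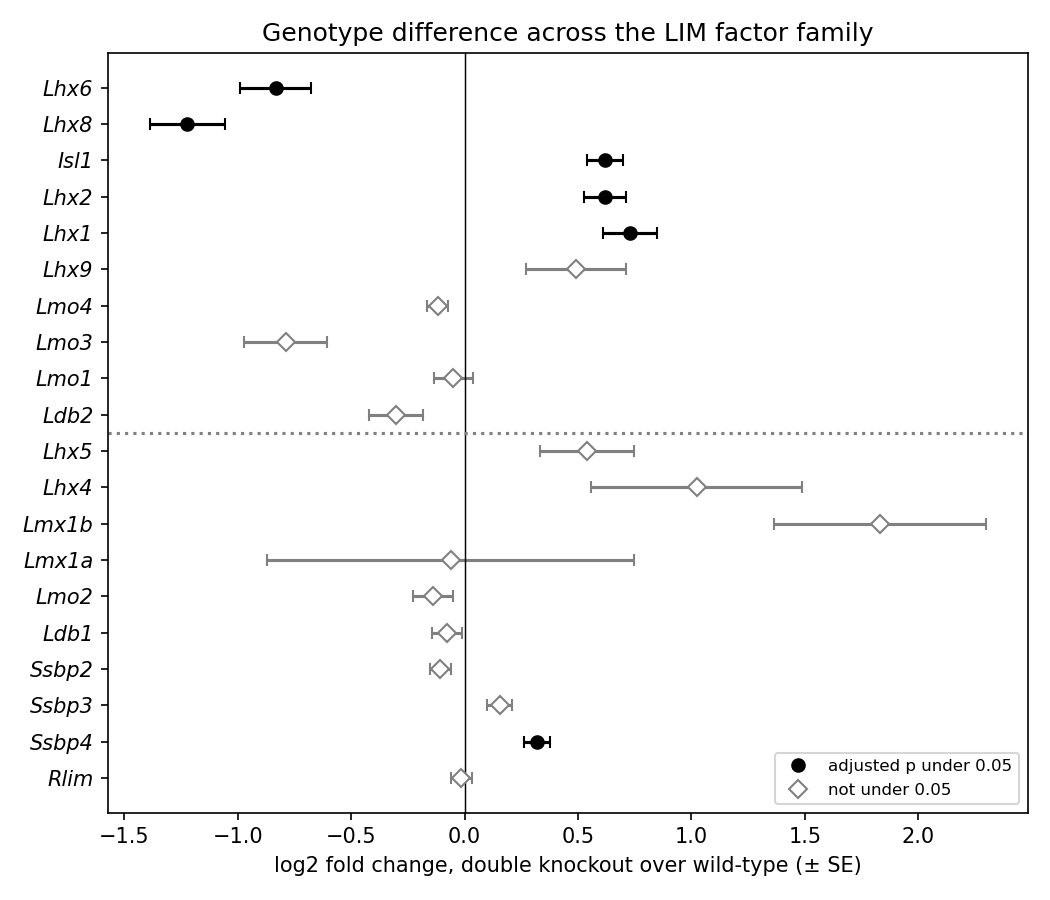
Log2 fold change with its standard error (double knockout over wild type) for the 10 genes (above the dotted line) and for 10 further tested genes of the LIM factor family and its complexes. Filled points mark the 6 genes with an edgeR adjusted p under 0.05, and they lie between -1.22 for Lhx8 and 0.73 for Lhx1.

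Levels of different genes were compared as CPM per kilobase of exon. In the wild type the order of the LIM homeodomain members was Lhx6 (35.8 ± 1.402 CPM per kilobase, SD, n = 3), Lhx2 (28.03 ± 3.68), Lhx8 (22.3 ± 1.51), Isl1 (15.6 ± 0.8204), Lhx9 (3.81 ± 0.427) and Lhx1 (1.58 ± 0.191). No neighbours in this order overlapped between libraries, but the lowest library of Lhx2 (23.99) and the highest of Lhx8 (23.6) lay close. The exon lengths are those of GENCODE M21, and the annotation used for counting is not known, so close ranks are uncertain. In the double knockout the order was Lhx2 (43.04 ± 2.23 CPM per kilobase, SD, n = 3), Isl1 (23.9 ± 2.55), Lhx6 (20.1 ± 5.38), Lhx8 (9.53 ± 2.61), Lhx9 (5.36 ± 1.75) and Lhx1 (2.63 ± 0.244). The libraries of Isl1 and Lhx6 overlapped in the double knockout, while those of Lhx2 were above both.

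The summed level of the 6 LIM homeodomain members overlapped between the groups, but its makeup did not. In the wild type the sum was 107 ± 2.98 CPM per kilobase (SD, n = 3), against 105 ± 10.6 CPM per kilobase (SD, n = 3) in the double knockout. Lhx6 and Lhx8 together made up 50.8 to 57.6% of this sum in wild-type libraries, and 24.4 to 33.1% in double knockouts. The share of Lhx2 went from 23.1 to 28.8% up to 39.001 to 43.05%, and that of Isl1 from 13.7 to 15.2% up to 22.6 to 22.996%. Lhx1 and Lhx9 together overlapped, at 4.64 to 5.298% and 4.92 to 9.57%. These shares rest on the same exon lengths, and on the same values as the fold changes above. They were summed after the fold changes had been seen.

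Among the LIM-only members, the wild-type order was Lmo4 (32.5 ± 1.39 CPM per kilobase, SD, n = 3), Lmo1 (26.8 ± 2.02) and Lmo3 (23.2 ± 3.57), and the libraries of Lmo1 and Lmo3 overlapped. In the double knockout it was Lmo4 (29.9 ± 0.339 CPM per kilobase, SD, n = 3), Lmo1 (25.9 ± 2.54) and Lmo3 (13.4 ± 3.43), with no overlap between neighbours. Their sum lay between 80.4 and 84.9 CPM per kilobase in wild-type libraries and between 68.5 and 69.5 in double knockouts. Ldb1 was at 65.2 ± 1.18 CPM per kilobase (SD, n = 3) and Ldb2 at 7.48 ± 0.797 in the wild type. Ldb2 thus made up 10.3% ± 1.05 (SD, n = 3) of the summed cofactor level there and 9.001% ± 1.798 (SD, n = 3) in the double knockout.

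For each called member, the genes most like it over the 6 libraries were taken from 16487 genes averaging 1 CPM or more, by Pearson's r of log2 CPM. For Lhx8 these were Gm12063 (r = 0.999), Gm6314 (r = 0.994) and Th (r = 0.994), and for Lhx6 they were Tor1b (r = 0.995), Ankrd49 (r = 0.995) and E130006D01Rik (r = 0.994). For Isl1 they were Zfp36l2 (r = 0.999), Fam214b (r = 0.998) and Dcaf8 (r = 0.997). For Lhx2 they were Ptch1 (r = 0.999), Zbed3 (r = 0.997) and Megf10 (r = 0.996), and for Lhx1 they were Lrp4 (r = 0.999), Lpp (r = 0.998) and Shroom3 (r = 0.995). All 6 points share the division into genotypes, so these coefficients describe these libraries only.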

How the data were processed

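RNA from 6 ganglionic eminence samples was sequenced after ribosomal depletion with a stranded total RNA kit, per the labels' protocols. The authors deposited raw read counts per gene and library. The submitters' processing notes name featureCounts and GRCm39. The aligner, annotation release, strand setting and versions are not given in the sources used here.

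Groups came from sample titles. Counts were filtered with filterByExpr (minimum count 10, minimum total 15), TMM-normalised and tested with edgeR 4.0.16's quasi-likelihood test in R 4.3.3, with no pairing term and Benjamini-Hochberg adjustment over 23628 genes. A gene was called at an adjusted p under 0.05. Log2 fold changes used a prior count of 0.125, and CPM values are TMM-normalised. The script was tested on simulated data. Total counts of 56618090 to 70114173 make 3 reads worth 0.0432 to 0.052 CPM, which covers counting error only.

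Exon lengths and overlaps came from GENCODE M21 (GRCm38), which held 94.1% of the table's identifiers. Whether counting used strand is unknown, so overlapping genes are called uncertain. Ratios of CPM within libraries were compared with exact two-sided permutation tests (scipy 1.17.1), adjusted over 7 pairs.

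The members and gene lists were chosen with earlier results of these data known. The genes that could be named were the members, the family genes, Dlx1 and Dlx2, the called genes and 3 most expressed genes of each lineage list, the 3 genes most like each called member, and marker genes. Gbx1, Gbx2 and the markers Otp, Sim1, Ebf3, Reln, Gsx2, Gad2 and Neurod2 were singled out after their values were seen. Some genes of the lists are counted but not reported here by name. Alternatives were DESeq2 1.42.0 and its size factors, total count scaling, limma-voom (limma 3.58.1), 2 other filters, a replicate block, a Y-linked covariate, a pseudocount of 1 CPM for ratios and leaving out each library.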

Additional observations from a re-analysis of the deposited data

How the results depend on the processing

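In place of the 634 called genes, DESeq2 called 1162 and the fit with Y-linked expression as a covariate 358, and the fits without 1 library called 309 to 749. The members called numbered 3 to 7 in the fits without a library and 4 to 6 in the others. For the 12 further family and complex genes the count of 1 became 0 with the Y-linked covariate (4 at an unadjusted p under 0.05 in edgeR) and 0 to 2 without a library (2 to 5 at an unadjusted p under 0.05 in edgeR), while DESeq2 and limma-voom called 1 of them each. The causes were not tested. Directions of the 10 members did not reverse in any of the 14 alternative fits. Reversals were seen in genes and a ratio near 0: without a library, Lmx1a ranged from -1.40 to 0.53, Rlim from -0.0451 to 0.00948, Reln from -0.0891 to 0.258 and the log2 ratio of Lmo4 to Ldb1 from -0.0865 to 0.0172, and total count scaling put Rlim at 0.0145. For the other 6 ratios the direction held in all 8 alternatives.

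Whether same-numbered libraries share a litter or a batch is not stated, and these data do not settle it. Their deviations from group means correlated at -0.0647, -0.0124 and 0.0504 over all tested genes. Over genes averaging 1 CPM or more they correlated at 0.287, 0.0712 and 0.144, so that not every pair exceeded 0.1 on either set. On the latter genes each double knockout library correlated best with its own number, as a hint from the data, but wild-type replicate 2 did not. With the replicate block 690 genes and 6 members were called, Lmo3 being the addition (edgeR adjusted p of 0.0186), and the other 9 members stayed on their side of the threshold. Ebf3 lost its call under the block (0.0553 in edgeR, adjusted p). The LIM homeodomain genes Lhx3, Lhx4, Isl2, Lmx1a and Lmx1b had at most 84 reads in any library, so their values are imprecise.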
